A study of Homo sapiens with 10 samples.

Results

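The expression of 9 genes of proteolysis at the cell surface was followed by RNA-seq of untreated cultures of 5 human prostate cancer cell lines. Each line had 2 biological repeats, which gave 10 samples. The genes were chosen by name, with earlier results of these data known. PLAU and PLAT encode the plasminogen activators urokinase and tissue-type activator, and PLAUR encodes the receptor that holds urokinase at the membrane. SERPINB5 encodes maspin, an epithelial serpin. MMP1 and MMP14 encode an interstitial collagenase and a membrane-anchored metalloproteinase, and TIMP1 encodes a secreted inhibitor of metalloproteinases. HPN and ST14 encode hepsin and matriptase, serine proteases with a transmembrane anchor. All 9 were found among the 60642 gene symbols of the deposited table, and all 9 passed the filter of at least 1 TPM in at least 2 samples that left 17520 genes for testing. TPM is a share of a sample's transcripts corrected for transcript length, so levels of different genes can be set side by side.

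The groups were LNCaP (clone FGC), DUCAP, VCAP, DU145 and PC3, all grown in phenol-red free RPMI with fetal bovine serum and harvested untreated in exponential growth. They are monocultures without stroma, so the values are those of the cultured tumour cells alone. DUCAP and VCAP come from the same patient and are therefore not independent lines. The main contrast set DU145 and PC3 against LNCaP, DUCAP and VCAP, a division that the study itself draws. P-values set a difference between lines against the spread between repeats, pooled over all lines and moderated toward that of genes of similar level.

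Plasmin, made from plasminogen by the activators, degrades fibrin and matrix proteins and can activate metalloproteinase zymogens. Binding of urokinase to its receptor confines this activity to the cell surface, and serpins block the activators. Membrane serine proteases such as hepsin and matriptase belong to the epithelial surface, where the Kunitz-type inhibitors HAI-1 and HAI-2 (SPINT1 and SPINT2) hold them in check, and hepsin is known for its high expression in prostate carcinoma. These enzymes are made as inactive precursors, so the transcript levels below are not enzyme activities.

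The samples were checked against marker genes first. The summed TPM of 3 epithelial markers (EPCAM, KRT8 and KRT18) lay between 432 and 2045 in every sample. The summed TPM of 4 prostate luminal markers (KLK3, KLK2, HOXB13 and FOLH1) lay between 2700 and 8403 in LNCaP, DUCAP and VCAP and between 334 and 544 in PC3, but at no more than 0.94 in DU145, in which these prostate markers were near 0. The PC3 sum was mostly HOXB13 (328 and 502 TPM), with FOLH1 at 4.97 and 40.9 TPM. KLK3 did not exceed 0.77 TPM in PC3 and KLK2 did not exceed 0.19 TPM, so both were near 0 there as well. Of 5 fibroblast markers, COL1A2 was at no more than 0.145 TPM on average in any line, and their sum reached 39.4 TPM in PC3, most of it COL1A1. The leukocyte markers PTPRC and CD3E did not exceed a mean of 0.095 TPM in any line, while the macrophage marker CD68 brought the leukocyte sum to 74.0 to 101 TPM in DU145 and 34.4 to 38.9 TPM in PC3, against at most 3.31 TPM elsewhere. The part of these markers and of the mitochondrial share in the results was not tested. Transcripts of the 37 mitochondrial genes took 12.7 to 36.0% of the TPM of a sample, most in DUCAP and VCAP. The repeats of DU145 were the least alike, with 1661 of the tested genes at least 2-fold apart on the log2(TPM + 1) scale against 158 to 372 in the other lines, and SERPINB5 and HPN were among them.

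The 9 genes fell into opposite patterns. Urokinase, its receptor, MMP14 and TIMP1 were high in both DU145 and PC3 and near 0 TPM, or for the receptor at no more than 3.25 TPM, in LNCaP, DUCAP and VCAP. Tissue-type activator, MMP1 and SERPINB5 had their highest levels in PC3. Hepsin and matriptase ran the other way, each with higher levels in LNCaP, DUCAP and VCAP than in DU145 and PC3.

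PLAU was listed at 788 and 693 TPM in the DU145 repeats and at 362 and 368 TPM in those of PC3. In the other 6 samples it did not exceed 0.12 TPM. The expressing lines did not overlap each other, and both lay far above the rest. The mean was 740 ± 66.8 TPM (SD, n = 2) in DU145 and 365 ± 4.07 TPM in PC3, a difference of 1.02 on the log2(TPM + 1) scale (standard error 0.14, adjusted p = 0.00054 from limma). That call was lost with a pseudocount of 0.1 (adjusted p = 0.061 from limma). LNCaP, DUCAP and VCAP did not differ from each other beyond the spread between repeats (adjusted p of 0.87 to 1 from limma). The gene lies on chromosome 10 of GRCh38.p14, from 73908832 to 73917494.

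PLAT, the second activator, was not expressed together with PLAU in both lines. It was listed at 205 and 242 TPM in PC3 but at 1.45 and 1.88 TPM in DU145, and at no more than 0.66 TPM elsewhere. PC3 exceeded DU145 by 6.40 on the log2(TPM + 1) scale (standard error 0.19, adjusted p = 1.8e-07 from limma). DU145 in turn exceeded DUCAP, the next line in order, by 0.90 (standard error 0.19, adjusted p = 0.0032 from limma), a call lost under quantile normalization (0.31) and when median ratios set the scale (0.056). The other 3 lines were not separable (adjusted p of 0.096 to 0.76 from limma) in the fit as described. DUCAP exceeded LNCaP under 4 of 17 alternatives, namely without DUCAP repeat 2 (0.038), with a pseudocount of 0.1 (0.013), and with quantile (0.029) or median-ratio scaling (0.049). Both activators were thus abundant in PC3, and of the activators urokinase alone was abundant in DU145.

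PLAUR followed its ligand in the expressing lines but kept a graded level in the others. It stood at 78.0 and 72.3 TPM in DU145 and at 59.3 and 60.0 TPM in PC3, values that did not overlap but whose difference of 0.33 on the log2(TPM + 1) scale did not pass the test (standard error 0.14, adjusted p = 0.082 from limma). It did after quantile normalization (0.040) and without mitochondrial genes (0.049). VCAP had 2.92 and 3.25 TPM, DUCAP 1.65 and 1.80 TPM, and LNCaP 0.56 and 0.46 TPM. Here the order was VCAP, DUCAP, LNCaP. DUCAP exceeded LNCaP by 0.85 on the log2(TPM + 1) scale (standard error 0.14, adjusted p = 0.00085 from limma). VCAP exceeded DUCAP by 0.58 (standard error 0.14, adjusted p = 0.023 from limma), a call that was lost when any of the 4 samples of the pair was left out (adjusted p of 0.057 to 0.12 from limma) and after quantile normalization (0.20). The gene for the receptor lies on chromosome 19, from 43646095 to 43670169.

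**Figure D1:**
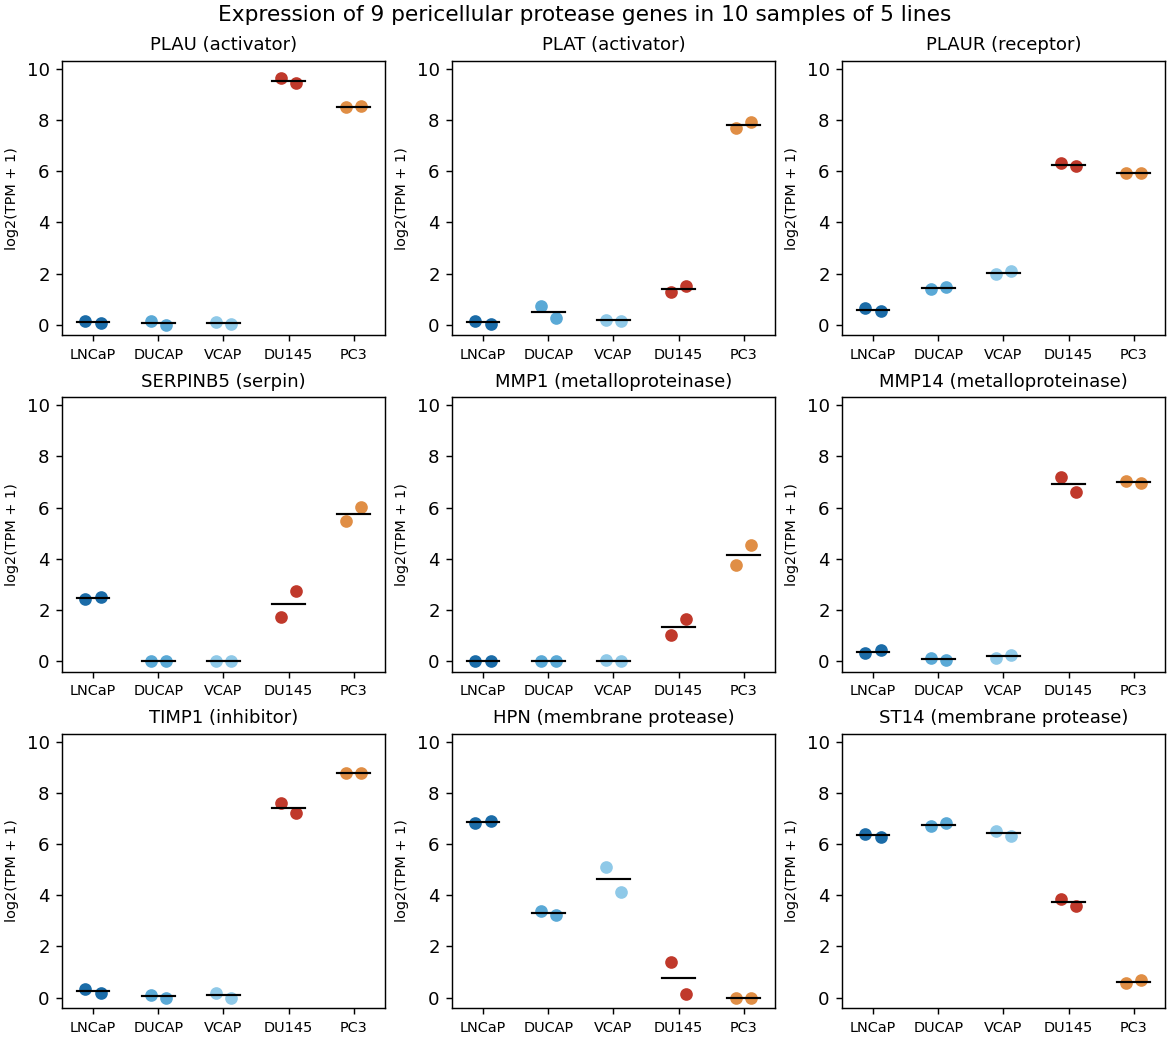
Expression of the 9 genes as log2(TPM + 1), 1 panel per gene and 1 point per sample, with a bar at the mean of the 2 repeats of each line. PLAU, PLAUR, MMP14 and TIMP1 are high in both DU145 and PC3, and PLAT, MMP1 and SERPINB5 are highest in PC3. HPN and ST14 are each higher in LNCaP, DUCAP and VCAP than in DU145 and PC3.

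MMP14, which cleaves collagen at the cell surface and activates pro-MMP2, was listed at 147 and 97.4 TPM in DU145 and at 132 and 123 TPM in PC3. The PC3 values lay within the range of the DU145 repeats, and the difference did not pass the test (0.09 on the log2(TPM + 1) scale, standard error 0.20, adjusted p = 0.77 from limma). The remaining 6 samples had 0.03 to 0.35 TPM. MMP14 spans 22836585 to 22847758 on chromosome 14.

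MMP1, which cleaves fibrillar collagen, was far less abundant. It reached 12.6 and 22.6 TPM in PC3 and 1.04 and 2.16 TPM in DU145. It was listed at 0 in LNCaP and DUCAP and at 0.03 and 0 TPM in VCAP. PC3 exceeded DU145 by 2.82 on the log2(TPM + 1) scale (standard error 0.28, adjusted p = 7.3e-05 from limma). MMP1 lies on chromosome 11, from 102789919 to 102798160.

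TIMP1 was the most abundant of the 9 transcripts in PC3, at 436 and 438 TPM. DU145 had 191 and 147 TPM, and the other 6 samples had 0 to 0.25 TPM. PC3 exceeded DU145 by 1.37 on the log2(TPM + 1) scale (standard error 0.17, adjusted p = 0.00027 from limma), so that the order of these lines was the reverse of that for PLAU. The inhibitor was thus high in the same lines as MMP14, whereas MMP1 was at 1.04 and 2.16 TPM in DU145. TIMP1 spans 47582436 to 47586789 on chromosome X.

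SERPINB5 was the one gene of the 9 whose levels overlapped between the groups. It stood at 43.0 and 63.9 TPM in PC3, at 2.29 and 5.69 TPM in DU145 and at 4.45 and 4.75 TPM in LNCaP. LNCaP lay between the DU145 repeats (difference of 0.25 on the log2(TPM + 1) scale, standard error 0.32, adjusted p = 0.53 from limma), and without DU145 repeat 2 LNCaP exceeded DU145 (adjusted p = 0.023 from limma). DUCAP was listed at 0 in both repeats and VCAP at 0.02 TPM in both. PC3 exceeded LNCaP, the next line, by 3.25 on that scale (standard error 0.32, adjusted p = 4.4e-05 from limma). Maspin does not trap proteases in the manner of inhibitory serpins, so its level is no measure of inhibition of the activators.

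HPN was highest in LNCaP, at 112 and 119 TPM. VCAP followed with 33.8 and 16.5 TPM, and DUCAP with 9.41 and 8.26 TPM. LNCaP exceeded VCAP by 2.24 on the log2(TPM + 1) scale (standard error 0.42, adjusted p = 0.0019 from limma). The standard error pools all lines, and the HPN repeats lay 0.99 apart in VCAP and 1.25 apart in DU145. VCAP and DUCAP did not overlap, yet their difference of 1.33 did not pass the test (standard error 0.42, adjusted p = 0.063 from limma). It was called when either DU145 repeat was left out (adjusted p = 0.011 from limma) or VCAP repeat 2 (0.046). DU145 had 1.64 and 0.11 TPM, and HPN was listed at 0 in both PC3 repeats. DU145 and PC3 were not separable (adjusted p = 0.16 from limma), but were without DU145 repeat 2 (0.011) or with a pseudocount of 0.1 (0.032). Hepsin maps to chromosome 19, 35040506 to 35066573.

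ST14 was nearly even in the 3 lines that expressed it strongly. DUCAP had 103 and 111 TPM, VCAP 89.9 and 79.1 TPM, and LNCaP 83.7 and 76.1 TPM. Neighbours in this order were not separable (adjusted p of 0.17 and 0.69 from limma). DU145 retained 13.6 and 10.8 TPM and PC3 0.48 and 0.62 TPM. DU145 lay 2.62 below LNCaP on the log2(TPM + 1) scale (standard error 0.15, adjusted p = 2.4e-06 from limma) and 3.09 above PC3 (standard error 0.15, adjusted p = 1.6e-06 from limma). After median-ratio scaling, VCAP exceeded LNCaP by 0.62 (adjusted p = 0.0061 from limma), with 0.63 after quantile normalization. Median-ratio scaling also placed VCAP below DUCAP (−0.56, adjusted p = 0.029 from limma). The gene lies on chromosome 11, from 130159782 to 130210362.

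The contrast of DU145 and PC3 with LNCaP, DUCAP and VCAP asked which of these genes separate these groups of lines. With an adjusted p under 0.05 from limma, 7 of the 9 genes were higher in DU145 and PC3 and 2 were lower. Among all tested genes, 74.4% were called, 51.9% higher and 22.5% lower, so that a call alone says little. All 4 samples of DU145 and PC3 lay above all 6 others for 6 of the 9 genes and below them for 2, against 19.8% and 6.92% of all tested genes. When a change of more than 2-fold was required, all 9 genes were still called, against 21.8% of tested genes, 16.7% called higher and 5.17% lower. Across the 5 lines without grouping, the F test called all 9 genes and 90.8% of all genes.

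The filter bears on these counts, since PLAU, PLAT, MMP1, MMP14 and TIMP1 reached 1 TPM in samples of DU145 and PC3 alone. All of the genes followed here were also chosen with earlier results known. The share of genes whose groups do not overlap was not counted without the filter. The shares over all tested genes are therefore no measure of an excess among the chosen genes.

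The differences were large. PLAU was higher in DU145 and PC3 by 8.93 on the log2(TPM + 1) scale (standard error 0.09, adjusted p = 8.2e-10 from limma), the increase that ranked 7 among 17520 genes. TIMP1 (7.95) ranked 11 and MMP14 (6.74) ranked 26. The increases of PLAUR and PLAT were 4.73 and 4.35, and those of SERPINB5 and MMP1 were 3.15 and 2.75. HPN was lower by 4.54 (difference −4.54, standard error 0.27, adjusted p = 1.3e-06 from limma) and ST14 by 4.33 (−4.33, standard error 0.10, adjusted p = 1.1e-08 from limma), decreases that ranked 38 and 50. The median over all tested genes was 0.40. It moved with the scaling, to −0.07 after quantile normalization, 0.02 after median-ratio scaling and 0.22 after rescaling without mitochondrial genes, and no member changed direction under any of these.

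**Figure D2:**
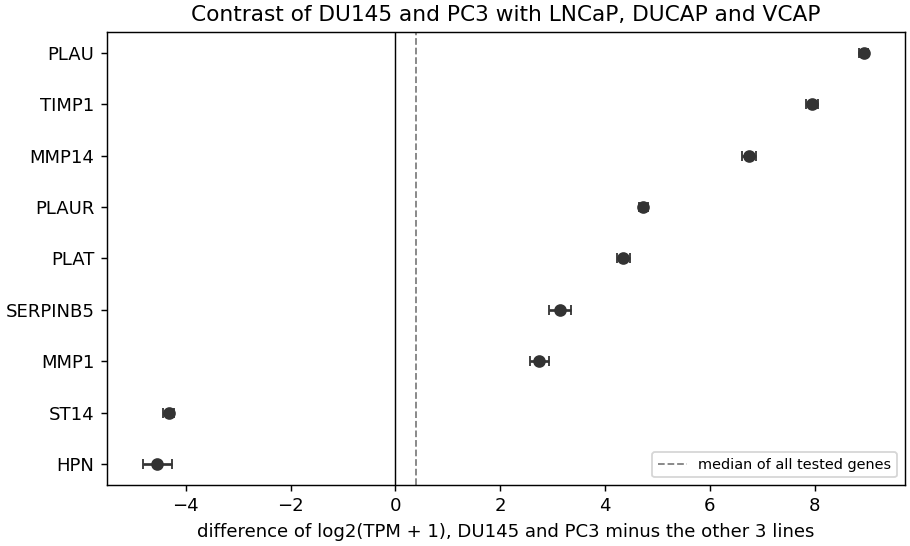
Difference of mean log2(TPM + 1) between DU145 and PC3 on one side and LNCaP, DUCAP and VCAP on the other, for each of the 9 genes, with the standard error from limma as a bar. The dashed line marks the median of all tested genes at 0.40; 7 genes lie to its right, up to PLAU at 8.93, and HPN and ST14 lie at −4.54 and −4.33.

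For 4 genes the size of the contrast rested on 1 line. Without PC3, the increase of PLAT fell from 4.35 to 1.15, that of SERPINB5 from 3.15 to 1.39 and that of MMP1 from 2.75 to 1.34, and the decrease of ST14 shrank from −4.33 to −2.78. Without DU145 the same values were 7.55, 4.90, 4.16 and −5.87. PLAU, PLAUR, MMP14, TIMP1 and HPN stayed within 1.5 times of their values when any line was left out. These p-values rest on the spread between repeats and speak of these 5 lines only. With whole lines as the unit, 10 groupings of 2 against 3 lines exist and an exact permutation test (two-sided) cannot go below p = 0.1. By that exact permutation test 8 of the genes reached this smallest value, while SERPINB5 had p = 0.3 (n = 5 lines). The share of all tested genes that reach this value was not counted. The genes were also chosen with earlier results known, so their count alone says little. The test treats DUCAP and VCAP as separate lines, although they come from the same patient.

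PC3 and DU145 were also compared directly, since they share the high levels of PLAU and MMP14. Of the 9 genes, 6 differed between them, against 49.3% of all tested genes. PLAT, SERPINB5, MMP1 and TIMP1 were higher in PC3, and PLAU and ST14 were higher in DU145. Between VCAP and DUCAP only the PLAUR call above was made, against 18.3% of all tested genes. LNCaP differed from DUCAP in 4 of the genes (60.7% of all) and from VCAP in 3 (60.1%), with SERPINB5 and HPN higher in LNCaP than in either and PLAUR lower. The remaining call, ST14 higher in DUCAP than in LNCaP by 0.42 on the log2(TPM + 1) scale (standard error 0.15, adjusted p = 0.042 from limma), was lost under 8 of 17 alternatives, among them without any of the repeats of DUCAP, LNCaP or PC3 (adjusted p of 0.060 to 0.21 from limma). DU145 differed from LNCaP in 8 of the genes (55.9% of all), and in all 9 from DUCAP (66.6%) and VCAP (65.4%). PC3 differed in all 9 from LNCaP (57.7%), DUCAP (67.8%) and VCAP (67.6%).

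Proteases were then set against their inhibitors within each sample, as ratios of (TPM + 1). The ratios were not tested. MMP14 and TIMP1 were high in the same lines, and the inhibitor transcript was the more abundant in both expressing lines. The MMP14 to TIMP1 ratio was 0.66 to 0.77 in DU145 and 0.28 to 0.30 in PC3, ranges that did not overlap. TIMP1 is a weak inhibitor of MMP14, whereas TIMP2 inhibits it well and also bridges it to pro-MMP2. TIMP2 was listed at 281 and 98.0 TPM in DU145, at 191 and 185 TPM in PC3, and at 23.5 and 32.7 TPM in LNCaP. DUCAP and VCAP had 1.87 to 8.82 TPM. Its increase in DU145 and PC3 was 4.27 on the log2(TPM + 1) scale (standard error 0.26, adjusted p = 1.7e-06 from limma). The MMP14 to TIMP2 ratio ranged from 0.53 to 0.99 in DU145 and from 0.67 to 0.69 in PC3, against 0.359 to 0.365 in DUCAP, 0.112 to 0.137 in VCAP and 0.04 to 0.05 in LNCaP. The ratios of those 3 lines, where MMP14 was near 0, rest on the added 1 TPM. With 0.1 TPM added, the mean log2 ratio moved from −1.47 to −3.66 in DUCAP and from −3.02 to −5.13 in VCAP. MMP2 itself did not exceed 0.03 TPM in any of the 6 samples of LNCaP, DUCAP and VCAP, and its mean was 0.01 TPM in DU145 and 0 in PC3.

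The membrane serine proteases showed the opposite arrangement, in which the proteases differed far more between the lines than their inhibitors. SPINT1 lay between 39.6 and 136 TPM in all 10 samples and SPINT2 between 124 and 572 TPM. SPINT2 was higher in DU145 and PC3 by 0.86 on the log2(TPM + 1) scale (standard error 0.09, adjusted p = 4.1e-05 from limma). SPINT1 was barely called lower (−0.43, standard error 0.17, adjusted p = 0.048 from limma), a call that was lost under 16 of 23 alternatives, with −0.097 (adjusted p = 0.68 from limma) when LNCaP was left out, and with −0.20 (0.084) without DU145 repeat 2. The ST14 to SPINT1 ratio was at least 1.36 in VCAP, 1.42 to 1.46 in DUCAP and 0.56 to 0.64 in LNCaP, against 0.19 to 0.29 in DU145 and 0.021 to 0.024 in PC3. For HPN and SPINT1 the ratio was 0.85 to 0.88 in LNCaP, 0.297 to 0.575 in VCAP and 0.12 to 0.15 in DUCAP, and at most 0.034 in DU145 and PC3. SPINT2 transcripts exceeded those of ST14 and of HPN in every sample.

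**Figure D3:**
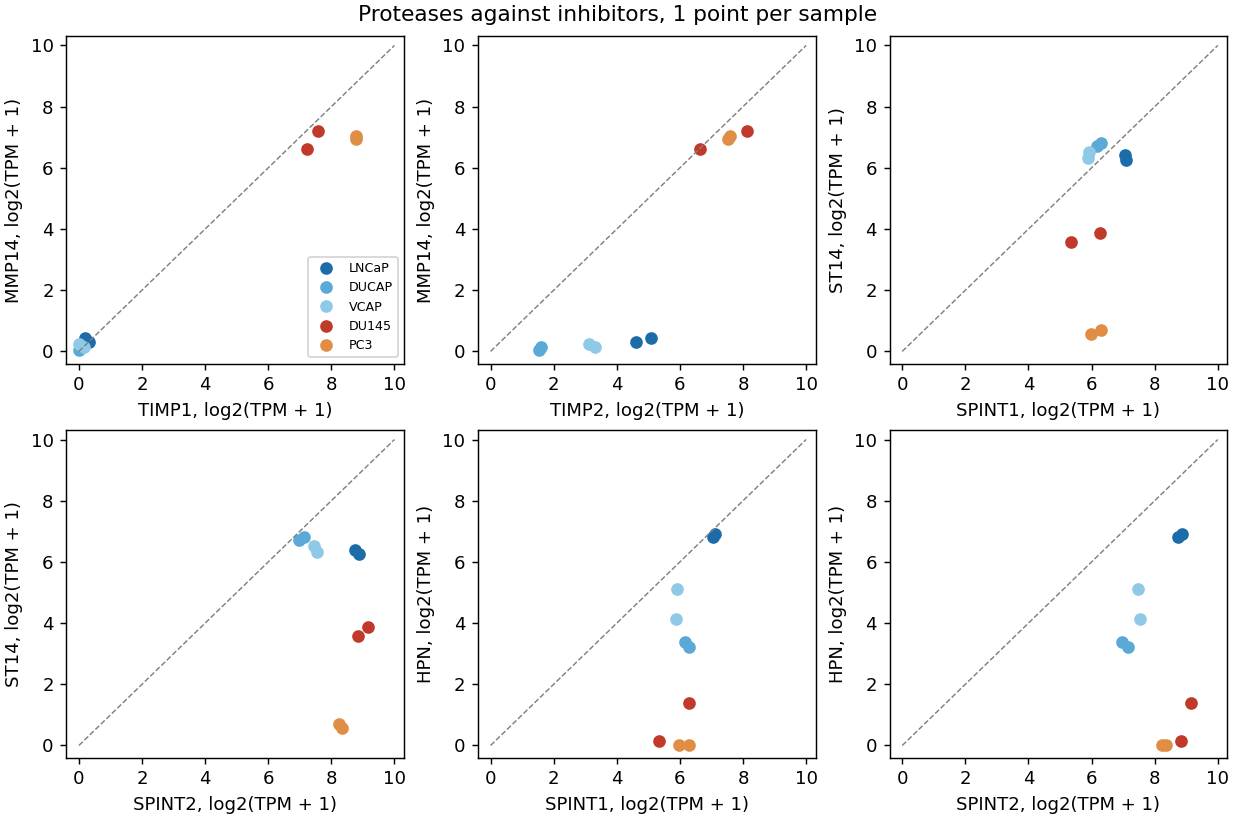
Level of a protease against that of an inhibitor, both as log2(TPM + 1), with 1 point per sample, colours for the 5 lines and a dashed line of equal levels. MMP14 lies below TIMP1 in DU145 and PC3, and ST14 and HPN drop in DU145 and PC3 while SPINT1 and SPINT2 stay between 39.6 and 572 TPM.

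Whole pathways were read from hand-compiled lists that contain the 9 genes. The 9 genes are counted in the lists that hold them, so those counts are no independent support for them. Of 17 genes of the plasminogen system, 12 passed the filter, and of these 8 rose and 2 fell in DU145 and PC3, against 51.9% and 22.5% of all tested genes. The tested genes of each list were partly chosen by the filter, so each list was also counted without it. All genes with a value then gave 33.4% higher and 15.2% lower, with a median difference of 0.05. On that footing 9 of the 17 plasminogen genes were higher, with PLAU, PLAT and PLAUR among them, and 2 lower, with a median of 0.37. The largest increases with non-overlapping groups were PLAU and ANXA2 (8.27, adjusted p = 2.3e-09 from limma), which encodes a plasminogen-binding annexin and has pseudogenes that may share its reads. SERPINE2, a serpin that inhibits urokinase, rose by 4.15, from 0.36 to 2.14 TPM in the other lines to 15.5 to 68.8 TPM. LRP1, the receptor that clears complexes of urokinase with serpins, rose by 2.80. Plasminogen itself (PLG) did not exceed 0.18 TPM in any sample and was not tested.

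Of 23 matrix metalloproteinases, 12 were tested, with 6 higher and 4 lower in DU145 and PC3, close to the shares over all tested genes. Without the filter, 8 of 22 were higher and 3 lower, with a median of 0.0042. Of the tested genes, 3 had non-overlapping groups, all higher, against 19.8% of all tested genes above and 6.92% below. These were MMP14, MMP1 and MMP17, of which MMP14 and MMP1 passed the filter through DU145 and PC3 alone. MMP17, a metalloproteinase with a membrane anchor of the glycolipid type, stood at 10.1 to 19.1 TPM in DU145 and PC3 and at 0.10 to 1.02 TPM elsewhere (3.61, standard error 0.19, adjusted p = 7.6e-07 from limma). MMP13, a further collagenase, was chiefly a PC3 transcript, at 9.30 and 22.6 TPM. LNCaP followed with 0.99 and 1.34 TPM, above the 0.30 and 0.33 TPM of DU145. Of 6 inhibitors and inducers of metalloproteinases, 5 were tested and 4 were higher, against 51.9% of all tested genes, with TIMP1 and TIMP2 in front. TIMP1 passed the filter through DU145 and PC3 alone. BSG, an inducer called higher, overlapped between the groups, with a mean of 514 TPM in LNCaP and 338 TPM in PC3. Without the filter, 4 of the 6 genes were higher, against 33.4% of all genes with a value, with a median of 0.94.

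Of 20 membrane serine proteases, 9 were tested, and 8 of these were lower and 1 was higher in DU145 and PC3, against 22.5% and 51.9% of all tested genes. Of these, TMPRSS4, TMPRSS13 and TMPRSS11E passed the filter through LNCaP, DUCAP and VCAP alone, and TMPRSS3 through DU145 and PC3 alone. Without the filter, 10 of 18 were lower and 2 higher, with a median of −0.16. Without either LNCaP repeat, 7 were tested and 6 were lower. TMPRSS2, a transmembrane protease of prostate epithelium, stood at 84.5 to 299 TPM in LNCaP, DUCAP and VCAP, at 18.9 and 22.7 TPM in PC3 and at 0.11 and 0.19 TPM in DU145 (−4.80, standard error 0.13, adjusted p = 2.5e-08 from limma). Its decrease exceeded that of HPN, but with a pseudocount of 0.1 the order turned (−5.93 for TMPRSS2 and −6.88 for HPN). PRSS8 encodes prostasin, a protease that acts in a cascade with matriptase. It was a transcript of LNCaP above all, at 97.4 and 106 TPM, and its levels elsewhere overlapped between the groups (0.40 to 14.6 TPM). The tested gene called higher was TMPRSS3, by 0.90 with a maximum of 2.46 TPM, and its call was lost when a 2-fold change was required. Of the 8 lower calls, 5 remained under that requirement. Among the 8, TMPRSS11E did not exceed 1.59 TPM in any sample, and PRSS27 exceeded 1 TPM in LNCaP alone.

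Of 9 inhibitors and substrates of the membrane serine proteases, 7 were tested, with 4 higher and 2 lower in DU145 and PC3 (3 lower after quantile normalization or median-ratio scaling), near the shares over all tested genes. Without the filter, 4 of 8 were higher and 1 lower, with a median of 0.47. The largest increases were in receptors whose ligands these proteases can activate. MET, the receptor of hepatocyte growth factor, stood at 40.8 to 130 TPM in DU145 and PC3 and at 0.45 to 1.69 TPM elsewhere (5.37, standard error 0.17, adjusted p = 4.0e-08 from limma). MST1R, the receptor of macrophage-stimulating protein, stood at 28.6 to 74.9 TPM and 0.15 to 1.96 TPM (4.69, standard error 0.17, adjusted p = 9.0e-08 from limma). Their receptor levels were thus high where HPN and ST14 were low.

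Of 13 clade B serpins, the family of SERPINB5, 6 were tested and these were called higher in DU145 and PC3 (5 after quantile normalization), against 51.9% of all tested genes. The groups did not overlap for 4 of them, against 19.8% of all tested genes, but did for SERPINB5 and SERPINB6. The mean of SERPINB6 was 181 TPM in LNCaP, 133 TPM in PC3 and 115 TPM in DU145. SERPINB9 had a mean of 8.2 TPM in DU145 and 0.155 TPM in PC3. SERPINB1, SERPINB7 and SERPINB9 passed the filter through DU145 and PC3 alone. Without the filter, 8 of 11 were higher, with a median of 0.68. SERPINB1, an inhibitor of neutrophil proteases, was listed at 24.8 to 55.0 TPM in DU145 and PC3 and at no more than 0.03 TPM elsewhere (5.08, standard error 0.17, adjusted p = 5.3e-08 from limma). SERPINB7 was listed at 90.3 and 160 TPM in PC3, at 1.09 and 2.28 TPM in DU145 and at no more than 0.03 TPM elsewhere. Like SERPINB5, it was highest in PC3.

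**Figure D4:**
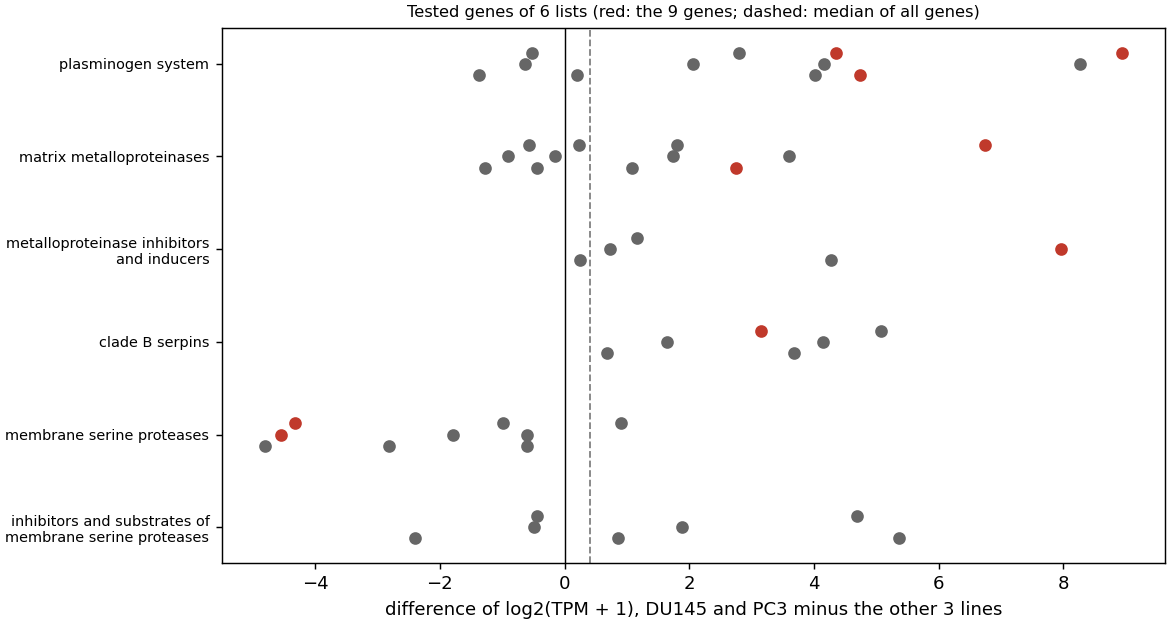
Difference of mean log2(TPM + 1), DU145 and PC3 minus the other 3 lines, for each tested gene of 6 pathway lists, with the 9 genes in red. In the list of membrane serine proteases 8 of 9 points lie below 0, and in that of clade B serpins all 6 lie above it.

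The genes whose levels most resembled those of the 9 were found by Pearson's r of log2(TPM + 1) over the 10 samples. These values describe 5 pairs of repeats rather than 10 independent points, and with so few lines many genes reach a high r. PLAU was closest to KIRREL1 (r = 0.9995) and RAB34 (0.9993), MMP14 to IER3 (0.9997) and LGALS3 (0.9994), and TIMP1 to GSTP1 (0.9992) and ZEB1 (0.9991). PLAUR was closest to SCRN1 (0.996) and MGLL (0.994). For PLAT these were PTN and COL8A1 (both 0.998), for MMP1 CHST7 (0.998), and for SERPINB5 COX16 (0.994) and ADORA2B (0.990). HPN was closest to CARD14 (0.994) and KLK15 (0.989), and ST14 to ZNF100 (0.995) and IGFBP2 (0.994). Among the 9 themselves, r was 0.996 between PLAU and MMP14, 0.994 between MMP14 and TIMP1, 0.977 between PLAT and MMP1, and −0.977 between MMP1 and ST14.

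The DNA before the start sites of the 9 genes was examined in RefSeq promoters of GRCh38.p14, limited to 250 bases before the start. Windows were found for 6 of the 9 genes, 7 windows in all because PLAU has 2, and PLAT, MMP1 and ST14 had none. The searched motifs, on both strands, were the AP-1 site TGANTCA, the GC box GGGCGG and the ETS core CCGGAA. The AP-1 letters occurred in the windows of PLAUR and SERPINB5, or 2 of 7, against 6.57% of 35116 windows of all genes. The GC box occurred in 5 of 7, including that of HPN, against 42.6%. The ETS core occurred in 0 of 7, against 14.5%. A match is a string of letters and no evidence of binding. The 4 windows that lie wholly before the annotated gene are shown, each 5′ to 3′ on the strand of its gene, with AP-1 and GC box matches in capitals, because they belong to genes that were high in PC3 and differ in which letters they hold. The windows are chr19:43670170-43670419 (minus strand) for PLAUR, chr18:63476708-63476957 (plus) for SERPINB5, chr14:22836335-22836584 (plus) for MMP14 and chrX:47582186-47582435 (plus) for TIMP1.
PLAUR: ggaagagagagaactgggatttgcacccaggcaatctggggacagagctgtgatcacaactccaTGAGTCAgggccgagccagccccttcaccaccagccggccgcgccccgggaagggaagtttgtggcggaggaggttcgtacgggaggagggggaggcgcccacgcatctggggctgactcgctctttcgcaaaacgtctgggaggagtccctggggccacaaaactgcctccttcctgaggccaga
SERPINB5: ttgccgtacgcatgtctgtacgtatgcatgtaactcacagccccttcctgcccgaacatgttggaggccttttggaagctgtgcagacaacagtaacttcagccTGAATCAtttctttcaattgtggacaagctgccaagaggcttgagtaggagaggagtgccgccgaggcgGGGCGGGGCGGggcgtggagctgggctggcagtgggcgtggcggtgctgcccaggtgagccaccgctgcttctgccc
MMP14: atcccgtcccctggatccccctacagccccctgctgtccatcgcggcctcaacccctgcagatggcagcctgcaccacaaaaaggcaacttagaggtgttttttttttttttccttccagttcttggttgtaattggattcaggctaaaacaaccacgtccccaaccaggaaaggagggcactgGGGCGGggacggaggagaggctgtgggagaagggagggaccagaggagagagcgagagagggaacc
TIMP1: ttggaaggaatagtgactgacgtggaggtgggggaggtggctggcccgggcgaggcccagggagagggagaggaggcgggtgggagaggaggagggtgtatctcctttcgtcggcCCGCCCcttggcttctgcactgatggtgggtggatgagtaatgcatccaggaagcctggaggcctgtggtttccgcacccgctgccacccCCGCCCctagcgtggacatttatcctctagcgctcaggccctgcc
The AP-1 match began at position −186 from the start site in PLAUR and at −146 in SERPINB5. The GC box matches of SERPINB5 share 1 base with each other, and those of TIMP1 are on the opposite strand.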

How the data were processed

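Per the labels, stranded polyA-enriched libraries were made from total RNA, and the submitters' processing notes name FastQC 0.11.9, Trim Galore 0.6.5, STAR 2.7.2b and RSEM 1.3.3 with GRCh38. The deposited values are TPM by gene symbol, which the authors estimated with RSEM. TPM keeps no sequencing depth, so no counting intervals can be given, and symbols with shared reads may be misallocated. TPM summed to 982880 to 991998 per sample.

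Genes with at least 1 TPM in 2 samples were kept, and log2(TPM + 1) was fitted with limma 3.58.1 in R 4.3.3 (trended variance, 1 coefficient per line, 5 residual degrees of freedom, Benjamini-Hochberg threshold 0.05). A log2(TPM + 1) difference understates the change of low genes. The fit was tested on simulated data for the contrast of DU145 and PC3 with the other lines: of 200 of 17520 genes changed by 1.5, 98% were recovered. Of the simulated calls, 3.92% were false. The simulated lines were otherwise equal, whereas 74.4% of tested genes were called in these data. The simulation therefore does not show how the contrast behaves when most genes differ. Lists were compiled by hand, and members and lists were chosen with earlier results of these data known. Named beside the members were, for each list and direction, the 2 genes with the largest change among those called without overlap of the groups, with inhibitors of the members and the genes of most similar level. Some genes chosen by these rules are not reported here. SERPINE2, LRP1, MMP2, MMP13, PRSS8, TMPRSS3, HGF and the metalloproteinases called lower were named after their values were seen. Ratios, correlations and motif counts came from Python 3.11.15 (numpy 2.4.6, pandas 2.3.3). Alternatives were a pseudocount of 0.1, no filter, other scalings, no trend, a replicate block, a 2-fold threshold (limma treat), each sample left out and, chosen after seeing the data, each line left out.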

Additional observations from a re-analysis of the deposited data

How the results depend on the processing

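The calls and directions of the 9 genes between DU145 and PC3 and the other lines held in 207 of 207 alternatives, and those of 17 further named genes in 371 of 389, with SPINT1, SPINT2 and TMPRSS3 as the exceptions. With a 2-fold threshold, 3826 genes were called in place of 13033, by construction of the test. The split of 9093 higher and 3940 lower became 6019 and 6825 under quantile normalization. It was 6616 and 6092 when median ratios set the scale, and 7819 and 4932 without mitochondrial genes. Leaving out 1 sample gave 11524 to 12977 calls. A pseudocount of 0.1 raised MMP1 from 2.75 to 5.64, SERPINB5 from 3.15 to 5.19 and HPN from −4.54 to −6.88. Same-numbered repeats share only a number (mean correlation of deviations 0.00922, range −0.191 to 0.249 over 10 pairs of lines), and with the replicate block 13007 genes were called, with the same 7 and 2 of the 9 genes. Under the block, HPN was called higher in VCAP than in DUCAP (adjusted p = 0.042 from limma), and the calls of ST14 between DUCAP and LNCaP (0.052) and of SPINT1 (0.059) were lost. Between pairs of lines, 12 of 90 calls on the 9 genes changed in at least 1 of 17 alternatives; the cause was not tested. All 40 mean log2 ratios kept their sign with a pseudocount of 0.1, but only 21 moved by less than the spread between repeats, and in PC3 that of HPN to SPINT1 went from −6.13 to −9.43. TPM gives no depth, so levels near 0 cannot be bounded.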

Other observations

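HGF, which encodes the ligand of MET, was listed at 27.4 and 43.7 TPM in VCAP and at 5.64 and 7.90 TPM in DUCAP, at 0 in LNCaP and DU145, and at 0.90 and 0.19 TPM in PC3. The ligand was thus transcribed in lines in which MET did not exceed 1.69 TPM. Among the 12 tested metalloproteinases, MMP15, MMP10, MMP28 and MMP7 were called lower in DU145 and PC3, by −1.27, −0.91, −0.57 and −0.44 on the log2(TPM + 1) scale, each with levels that overlapped between the groups.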
